A study of Mus musculus with 22 samples.

Results

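Col10a1 and Panx3 are expressed by chondrocytes that leave the proliferative zone of the growth plate and enlarge, and both serve as markers of hypertrophic maturation. They were taken by gene symbol from the deposited count tables, as 2 of 34866 genes in the culture tables and 2 of 23911 genes in the cartilage table. Both genes passed the expression filter in every comparison. They were chosen by their measured response to genotype in culture and in tissue, so the differences between genotypes are given as descriptions, with no test. The direction of this response did not differ for Panx3, which was lower in the knockout at day 0, at day 3 and in cartilage. Col10a1 was lower at day 0 and in cartilage. At day 3 it was higher (log2 fold change 3.28, or 0.82 without knockout replicate 4). The change with culture day in control cells and the difference between the sexes in cartilage are other contrasts and were tested. They share libraries with the genotype contrasts, and the genes were chosen with earlier results known. Their p-values are therefore not independent of the choice.

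The series measured RNA in 22 mouse samples of 6 groups, in which the maintenance DNA methyltransferase gene Dnmt1 was either intact or deleted. Control samples carried the loxP-flanked allele without Cre (Dnmt1 flox), and conditional knockout (cKO) samples were Prrx1-Cre;Dnmt1 flox/flox. The Prrx1 driver is active in limb mesenchyme, so that Cre acts in the precursors of limb chondrocytes and of other limb connective tissue cells, not in chondrocytes alone. Primary chondrocytes of knee articular cartilage, from mice at postnatal day 3 to 5, were sampled untreated at day 0 (3 control, 3 cKO) and after 3 days of bone morphogenetic protein 2 (BMP2, 100 ng/µl in the labels) at day 3 (4 control, 4 cKO). Cartilage of mice at postnatal day 5, cleared of connective tissue with collagenase, gave 4 control and 4 cKO samples. Replicates 1 and 2 of each cartilage genotype were male and replicates 3 and 4 female.

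Col10a1 encodes the chain of type X collagen, a short-chain collagen laid down in the matrix around hypertrophic chondrocytes. Panx3 encodes pannexin 3, a channel protein of the plasma membrane and the endoplasmic reticulum that passes ATP and calcium and is switched on as chondrocytes move from the prehypertrophic to the hypertrophic stage. In the growth plate this sequence is set by Indian hedgehog, parathyroid hormone-related peptide and BMP signalling, and by the transcription factors Sox9, Runx2, Mef2c and the Foxa family.

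In GENCODE M21 on GRCm38, Col10a1 (ENSMUSG00000039462) lies on chromosome 10, 34389981 to 34397085, on the plus strand, and has 1 transcript of 3 exons and 3130 bases. Panx3 (ENSMUSG00000011118) lies on chromosome 9, 37659902 to 37669235, on the minus strand. It has 3 transcripts, of which the first has 4 exons and 2531 bases. The minus-strand gene Nt5dc1 spans Col10a1 and shares 18 exon bases with it. Its mean level lay between 7.95 and 15.2 CPM (counts after scaling every library to 1 size) in the 6 groups, far below most Col10a1 values.

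The start of Col10a1 is shown because deletion of a DNA methyltransferase raises the question of how many CpG sites the region holds. These are the 250 bases before the start at chr10:34389731-34389980, plus strand, from RefSeq on GRCm38.p6, with each CpG, the TATA box and a homeodomain core in capitals.
Col10a1: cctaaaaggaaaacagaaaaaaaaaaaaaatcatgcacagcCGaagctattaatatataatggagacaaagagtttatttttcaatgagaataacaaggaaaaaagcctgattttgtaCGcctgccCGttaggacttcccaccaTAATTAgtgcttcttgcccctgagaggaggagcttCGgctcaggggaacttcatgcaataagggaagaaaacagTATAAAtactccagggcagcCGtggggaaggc
The window holds 5 CpG, against a median of 6 over 32851 windows of this length, and 49.6% of the windows hold as few. Its GC content was 41.6%, against a median of 52.4%. On both strands, the TATA box letters TATAAA occurred once, starting at base -32, as in 12.4% of windows, and the homeodomain core TAATTA once, starting at base -106, as in 4.84%. No match was found for the Runx core ACCACA (14% of windows have it) or the Mef2 type motif (3.2%). The motifs found do not overlap each other. These are matches of letters, and no methylation or binding was measured at this window.

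Each day 0 library held 41749546 to 51741669 counts, each day 3 library 14434320 to 18918905 and each cartilage library 1100198 to 1888896. Dnmt1 itself averaged 157.7 ± 6.87 CPM in control and 29.0 ± 3.26 CPM in cKO at day 0 (SD, n = 3), 68.98 ± 8.53 against 25.8 ± 11.6 CPM at day 3, and 42.5 ± 6.18 against 13.2 ± 1.09 CPM in cartilage (SD, n = 4), and the genotypes never overlapped. Estimated counts of the same cartilage libraries put Dnmt1 at 52.9 ± 7.60 CPM in control and 30.6 ± 3.30 CPM in cKO (SD, n = 4), a lesser difference. Chondrocyte markers (10 genes, led by Col2a1, the main cartilage collagen) were present in every library, at summed levels of 149400 to 157700 CPM in control and 54540 to 66240 CPM in cKO cultures at day 0, 99240 to 121400 and 1674 to 18290 CPM at day 3, and 70530 to 104500 and 34010 to 64400 CPM in cartilage. The library labelled cKO day 3 replicate 4 stood apart. Its correlation across genes with the other 3 cKO libraries of that day was 0.939 to 0.945, against 0.991 to 0.993 among those 3, and its Col2a1 level was 705.5 CPM against their mean of 10600 CPM. The log2 fold changes of Col10a1 and Panx3 that use it are given with and without it, and ranges over day 3 cKO libraries include it. The labels call the culture samples biological replicates but do not say whether each came from a separate animal. P-values measure the spread between these samples, and how much of it lies between animals is not known. In bulk RNA, fewer cells of a type and less RNA per cell cannot be told apart.

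In control cultures Col10a1 was high when untreated and low after 3 days of BMP2 (plot of each gene's level by library). At day 0 the 3 control cultures held 1219, 1179 and 1182 CPM of Col10a1. The 3 cKO cultures held 588.2, 725.1 and 772.1 CPM. Every cKO culture lay below every control culture, and the cKO cultures were the more spread. Control averaged 1193 ± 22.3 CPM and cKO 695.1 ± 95.5 CPM (SD, n = 3 per group), a log2 fold change of −0.78 (SE 0.087), or 1.72-fold lower in cKO.

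**Figure D1:**
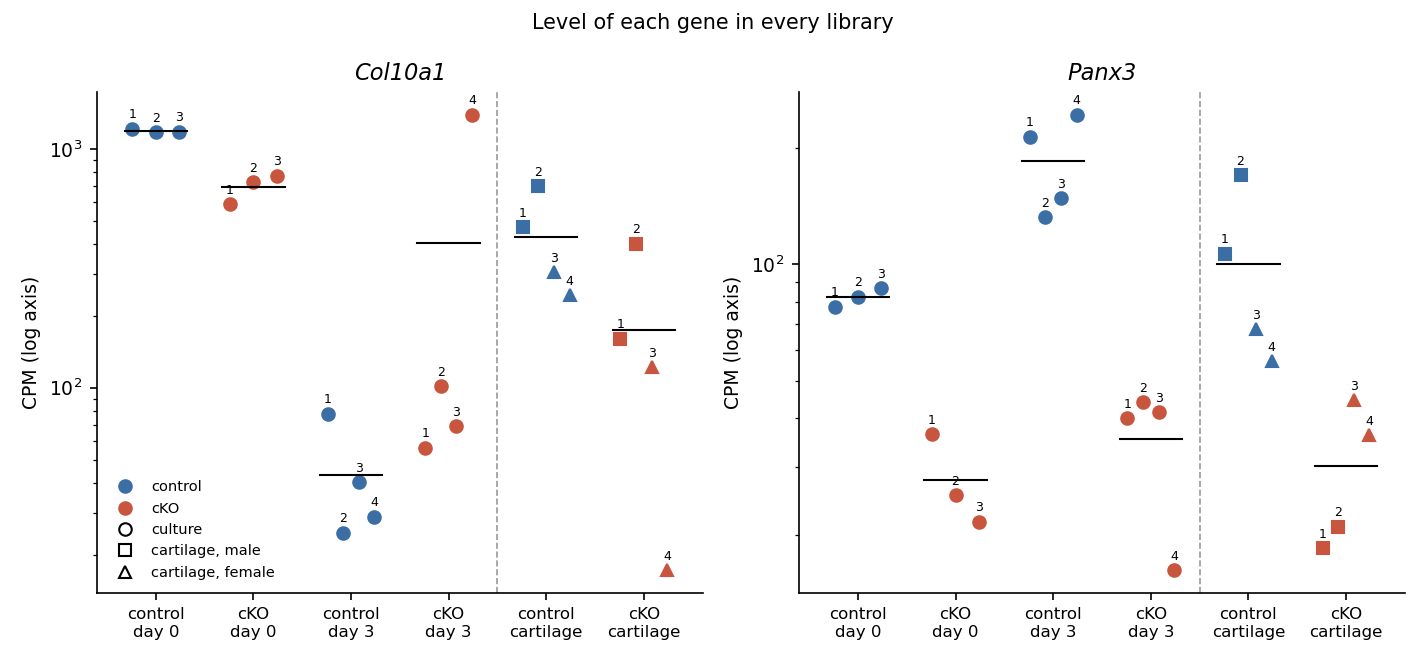
Level of Col10a1 (left) and Panx3 (right) in CPM (log axis) in every library of the 6 groups, with the replicate number above each point and the group mean as a bar; the dashed line parts cultures from cartilage, which were scaled separately. Col10a1 of cKO day 3 replicate 4 sits at 1392 CPM, above the 3 other cKO libraries at 56.1 to 101.3 CPM, whereas Panx3 is lower in every cKO library than in any control of its setting.

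At day 3 the control cultures held 77.9, 24.7, 40.2 and 28.8 CPM of Col10a1, and the cKO cultures held 56.1, 101.3, 68.9 and 1392 CPM. The genotypes overlapped, since control replicate 1 lay above cKO replicates 1 and 3. Control averaged 42.9 ± 24.3 CPM and cKO 404.6 ± 658.5 CPM (SD, n = 4 per group), with a log2 fold change of 3.28 (SE 1.13). Replicate 4 alone sets the size of this value: without it the cKO mean was 75.5 ± 23.3 CPM (SD, n = 3) and the log2 fold change 0.82 (SE 0.36). Its Col10a1 level was 18.4 times the mean of the other 3.

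In cartilage the 2 male controls held 469.8 and 700.5 CPM of Col10a1 and the 2 female controls 305.4 and 244.5 CPM. The cKO males held 160.4 and 401.4 CPM and the cKO females 122.2 and 17.2 CPM. The genotypes overlapped through cKO replicate 2, which lay above both female controls. The remaining cKO libraries lay below every control. Control averaged 430.0 ± 203.9 CPM and cKO 175.3 ± 162.4 CPM (SD, n = 4 per group), and the log2 fold change with sex as a covariate was −1.48 (SE 0.38). The lowest value, in cKO replicate 4, rested on 20 counts.

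Panx3 was lower in cKO than in control in all 3 settings, with no overlap between the genotypes in any of them. At day 0 the control cultures held 77.8, 82.5 and 86.7 CPM and the cKO cultures 36.4, 25.3 and 21.6 CPM. This gave 82.3 ± 4.48 CPM in control and 27.8 ± 7.7 CPM in cKO (SD, n = 3 per group), with a log2 fold change of −1.57 (SE 0.16). At day 3 the control cultures held 213.8, 132.4, 148.2 and 243.7 CPM and the cKO cultures 40.0, 43.99, 41.5 and 16.2 CPM. The genotypes were set apart by more than the whole cKO range. This gave 184.5 ± 52.9 CPM in control and 35.4 ± 12.9 CPM in cKO (SD, n = 4 per group), with a log2 fold change of −2.37 (SE 0.32). Without cKO replicate 4 it was −2.14 (SE 0.21), and the 3 remaining cKO cultures agreed closely, at 41.8 ± 2.02 CPM (SD, n = 3).

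In cartilage the control males held 106.6 and 169.8 CPM of Panx3 and the control females 67.9 and 56.1 CPM. The cKO males held 18.5 and 20.99 CPM and the cKO females 44.6 and 36.2 CPM. The highest cKO library lay below the lowest control library. This gave 100.1 ± 51.2 CPM in control and 30.1 ± 12.5 CPM in cKO (SD, n = 4 per group), and the log2 fold change was −1.65 (SE 0.33). Nothing is read from these counts of separated groups, because the choice of the 2 genes used the same contrasts. Of all genes, cKO lay below control without overlap for 34.2% at day 0, 23.5% at day 3 and 6.4% in cartilage.

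Markers of some other cells also moved with genotype, and markers of others overlapped between the genotypes. Skeletal muscle markers (9 genes) summed to 11.4 to 13.2 CPM in control and 53.8 to 56.0 CPM in cKO cultures at day 0, and to 1.68 to 2.39 and 136.9 to 2080 CPM at day 3. Myf5 was at 0 in every library of day 3. In cartilage the same list (7 of its 9 genes used here, with Myh3 at 0 in every control library and Myog and Myf5 at 0 in every cKO library) summed to 10.5 to 15.6 CPM in control and 44.6 to 79.8 CPM in cKO. Osteoclast markers (8 of 9 genes used here) summed to 129.8 to 463.9 CPM in control and 62.1 to 124.9 CPM in cKO cartilage. Osteoblast markers (11 genes) overlapped there, at 42970 to 81590 and 21000 to 49720 CPM, with Mepe at 0 in every cKO library. Red blood cell markers (5 genes) overlapped too, at 165.9 to 915.9 and 13.4 to 388.9 CPM. So did endothelial markers (7 genes), at 68.3 to 132.3 CPM in control and 45.7 to 97.1 CPM in cKO cartilage. Macrophage markers (5 genes) stood at 35.3 to 74.1 and 20.2 to 58.6 CPM. Fibroblast and tendon markers (6 genes) stood at 584.6 to 1436 and 395.5 to 1472 CPM. The part of these cells in the Col10a1 and Panx3 differences was not tested. All 4 control cartilage libraries were in 1 library pool and all 4 cKO libraries in another, so that pool and genotype cannot be told apart.

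Since Col2a1 also differed between genotypes, the 2 genes were set against it within each library. At day 0 Col10a1 stood at 11.3 to 11.8 counts per 1000 Col2a1 counts in control and 14.6 to 18.6 in cKO cultures, so that by this ratio the cKO cultures were the higher. For Panx3 the same ratio spanned 0.735 to 0.827 in control against 0.520 to 0.906 in cKO, and the genotypes overlapped. Day 3 values of 1.83 to 3.21 (control) and 3.43 to 23.0 (cKO) put cKO higher, and Col10a1 stood at 0.341 to 1.08 in control and 4.97 to 1974 in cKO. Both cKO maxima came from replicate 4, and the next highest, in replicate 2, were 5.24 for Panx3 and 12.1 for Col10a1. In cartilage the genotypes overlapped in both ratios, at 4.29 to 12.6 and 0.588 to 9.33 for Col10a1 and 0.952 to 3.05 and 0.483 to 2.46 for Panx3. The direction for Col10a1 at day 0 and for Panx3 at day 3 therefore depends on whether a gene is set against all counts or against Col2a1.

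From day 0 to day 3, control cultures changed in opposite directions for the 2 genes. Col10a1 fell from 1179 to 1219 CPM at day 0 to 24.7 to 77.9 CPM at day 3, with no overlap. The log2 fold change was −4.80 (SE 1.01, edgeR adjusted p 0.00125), or 27.9-fold lower, and the call held in each of the 18 alternative fits that gave a p, at adjusted p 3.27e-08 to 0.00555. Panx3 rose from 77.8 to 86.7 CPM to 132.4 to 243.7 CPM, also with no overlap. Its log2 fold change was 1.16 (SE 0.31, edgeR adjusted p 0.00574), or 2.24-fold higher, with adjusted p 0.000153 to 0.0256 over 19 alternative fits. Of all genes tested, 56.9% were called, 28.8% lower and 28.1% higher, and the days did not overlap for 33.2% that were lower and 30.8% that were higher at day 3. Day, BMP2 and count table changed together and cannot be told apart.

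The cKO cultures gave smaller day changes, here as descriptions. Col10a1 had a log2 change of −0.78 (SE 0.90) with all libraries and −3.20 (SE 0.34), or 9.19-fold lower, without replicate 4 of day 3. Panx3 had a log2 change of 0.35 (SE 0.31), and 0.60 (SE 0.22) without that library. In cKO, Panx3 at day 3 overlapped with day 0 through replicate 4 alone.

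Ordered by mean over the cultures, Col10a1 was highest in control at day 0, then cKO at day 0, cKO at day 3 and control at day 3. The last 2 groups overlapped, and cKO at day 0 and day 3 overlapped through replicate 4 only. Panx3 was highest in control at day 3, then control at day 0, cKO at day 3 and cKO at day 0, of which the last 2 overlapped, again through replicate 4. Per kilobase of transcript, the Col10a1 level was 11.02 to 12.67 times that of Panx3 in control cultures at day 0 and 13.1 to 28.9 times in cKO. After BMP2 it fell to between 0.0956 and 0.295 times in control, so that Panx3 was there the more abundant transcript. In cKO at day 3 it was 1.13, 1.86, 1.34 and 69.5 times. The change in control cultures from a Col10a1-rich to a Panx3-rich state was thus present in every library.

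Set against each other, the 2 genes kept a nearly constant ratio in control cartilage and a widely spread one in cKO cartilage (plot of Col10a1 against Panx3). The ratio of Col10a1 to Panx3 counts in the 4 controls was 4.41, 4.13, 4.5 and 4.36, although Col10a1 itself ranged from 244.5 to 700.5 CPM between these libraries. The mean ratio was 4.35 ± 0.16 (SD, n = 4). In the 4 cKO libraries it was 8.68, 19.1, 2.74 and 0.476, with a mean of 7.75 ± 8.33 (SD, n = 4). The cKO males lay above every control and the cKO females below every control. The estimated counts of the same libraries gave 4.63 to 5.25 in control and 0.804 to 24.7 in cKO. Over all 8 cartilage libraries, centred on the setting mean, Pearson's r between the genes was 0.462. It was 0.844 over the 6 cultures of day 0 and −0.753 over the 8 of day 3. Genotype and, at day 3, cKO replicate 4 enter these values, which are descriptions.

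**Figure D2:**
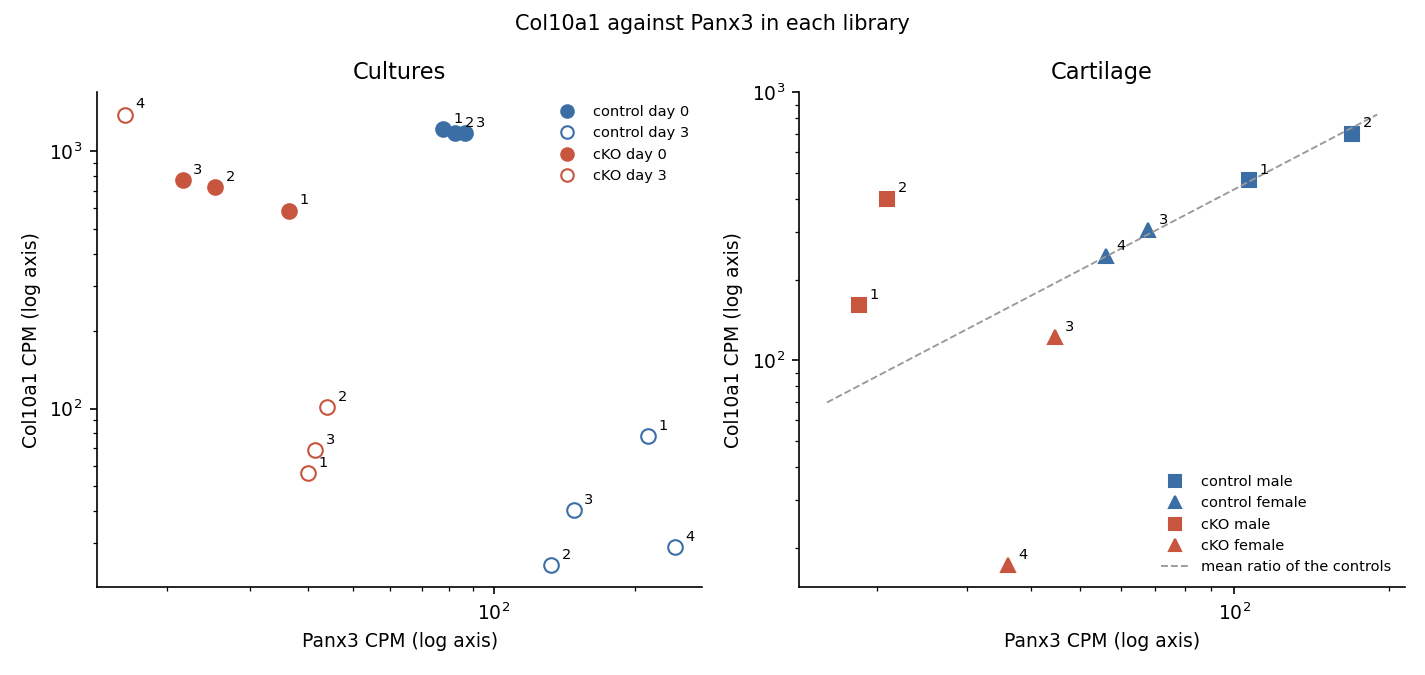
Col10a1 against Panx3, both in CPM on log axes, for the 14 culture libraries (left; filled for day 0, open for day 3) and the 8 cartilage libraries (right; squares male, triangles female), numbered by replicate. The 4 control cartilage libraries follow the dashed line of their mean ratio of 4.35, and the 4 cKO libraries scatter from 0.476 to 19.1.

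Sex was tested in cartilage over 4 male and 4 female samples with genotype as a covariate. Col10a1 averaged 585.1 CPM in control males against 274.9 CPM in control females, and 280.9 against 69.7 CPM in cKO. Males lay above females in both genotypes without overlap, with 2 libraries of each sex per genotype. The share of all genes separated in this way was not computed, so nothing is read from the separation. The log2 female over male difference was −1.51 (SE 0.38, edgeR adjusted p 0.299), which did not pass the threshold. Of 12 alternative fits, only that with no expression filter passed it (edgeR adjusted p 1.68e-17, log2 −1.49). The edgeR adjusted p was 0.122 to 0.841 without single replicates and 0.598 with estimated counts. Of 9687 genes tested, 4 were called, or 0.0413%, and 651 had an unadjusted p under 0.05. Panx3 had a log2 difference of −0.38 (SE 0.32, edgeR adjusted p 0.897).

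That value for Panx3 averages opposite differences. Control males held more Panx3 than control females, at a mean of 138.2 against 62.0 CPM. The cKO males held less than the cKO females, at 19.7 against 40.4 CPM. The sexes did not overlap in either genotype, from which nothing is read here either. The female over male log2 difference was −1.16 in control and 1.02 in cKO. The signed gap, cKO minus control, was 2.19 (SE 0.38), a value added after the levels were seen. This gap is also the genotype difference in females minus that in males. It therefore uses the contrast by which the genes were chosen, and is a description from which nothing is read. Over 10 alternative fits it ran from 1.83 to 2.48. For Col10a1 the same gap was −0.93 (SE 0.72).

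Around these 2 genes, 15 other genes of chondrocyte maturation were followed, among them matrix enzymes, mineralisation genes and signals (plot of their log2 fold changes). At day 0, 5 were called higher, 6 lower and 4 were not called, with a median log2 fold change of −0.55 against 0.01 over all genes, of which 64.5% were called (33.0% higher, 31.6% lower). Ihh (Indian hedgehog, the prehypertrophic signal) fell from 5.66 ± 0.31 to 0.95 ± 0.15 CPM (SD, n = 3; log2 −2.58, edgeR adjusted p 5.98e-07). Bmp6, a BMP ligand of hypertrophic cells, fell (log2 −1.83), as did the cell-cycle inhibitor Cdkn1c (−1.33). The aggrecanase Adamts4 and the gelatinase Mmp9 were higher (1.17 and 1.15), Mmp9 at means of 0.221 and 0.495 CPM and not called by DESeq2 (adjusted p 0.0827). In 1 fit of all 14 cultures, 3 were called higher.

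**Figure D3:**
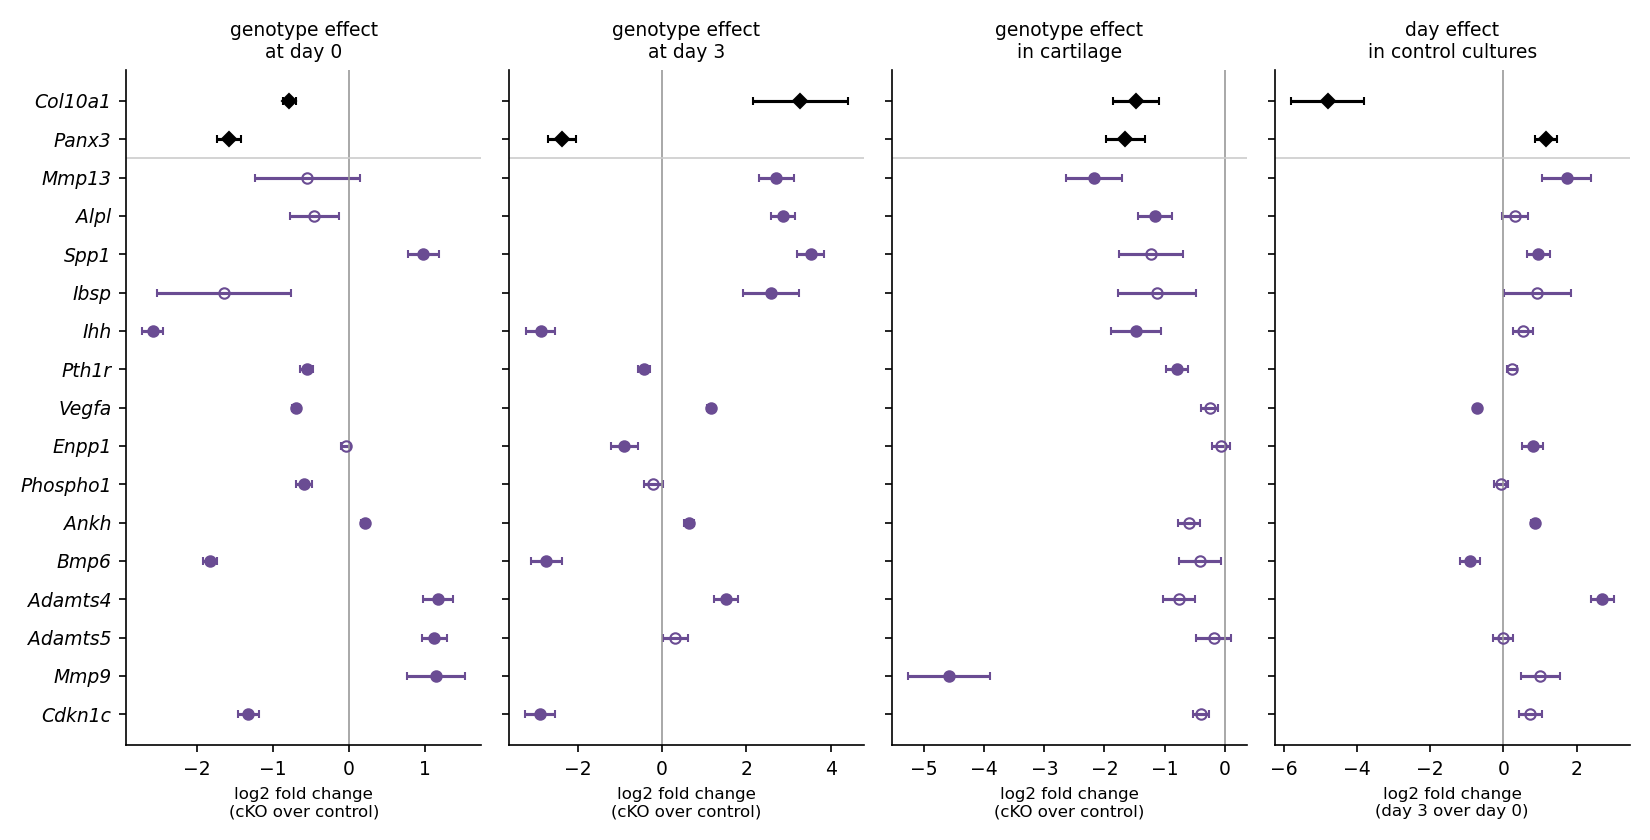
Log2 fold change with its standard error for Col10a1 and Panx3 (diamonds) and 15 other maturation genes (circles, filled where called at adjusted p under 0.05) in the 3 genotype comparisons and in the day comparison of control cultures; Phospho1 in cartilage and Mmp9 at day 3 did not pass the expression filter. At day 3 Spp1, Alpl and Mmp13 lie to the right with Col10a1 while Ihh, Bmp6 and Cdkn1c lie to the left with Panx3, and in cartilage all 14 points tested lie to the left of 0.

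At day 3, 7 of 14 tested maturation genes were called higher, 5 lower and 2 were not called (median 0.48, with 48.1% of all genes called, 25.5% higher and 22.6% lower). Spp1 (osteopontin) rose from 267.4 ± 108.6 to 3054 ± 708.1 CPM (SD, n = 4; log2 3.53, edgeR adjusted p 8.07e-05) and Alpl (alkaline phosphatase) from 46.4 ± 16.4 to 334.3 ± 84.5 CPM (log2 2.87). Cdkn1c, Ihh and Bmp6 fell (−2.89, −2.88 and −2.74). Leaving out control replicate 1, control replicate 4 or cKO replicate 3 left 3 genes called lower. The library with the very high Col10a1 did not lead the other genes of this kind throughout. Its Mmp13 and Alpl levels, 1073 and 428.2 CPM, were the highest of the 4 cKO libraries. Its Spp1 (2075 CPM), Ibsp (21.9 CPM, against 238.9 to 290.1) and Ihh (0.461 CPM) were the lowest, and so was its Panx3. The osteoclast list summed to 435.7 CPM there, of which Ctsk, a protease that osteoclasts make in abundance, made up 349.8 CPM. The list summed to 100.9 to 119.8 CPM in the other cKO libraries and 119.3 to 149.5 CPM in the controls of that day. Of the list, Acp5 (4.21 CPM) and Mmp9 (0.346 CPM) lay inside the range of the other cKO libraries. Ctsk also stood at 163.4 to 168.1 CPM in day 0 controls, where Acp5 was at 0.896 to 0.993 CPM. The part of the osteoclast list in the Col10a1 value was not tested.

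In cartilage 5 of 14 tested maturation genes were called lower, none higher and 9 were not called (median −0.78, with 6.19% of all genes called, 3.15% higher and 3.04% lower). At an unadjusted p under 0.05, 0 were higher and 9 lower by edgeR, and 0 and 8 by DESeq2. The 5 were Mmp9 (log2 −4.59), the collagenase Mmp13 (−2.17), Ihh (−1.48), Alpl (−1.16) and the parathyroid hormone receptor gene Pth1r (−0.80). Mmp9, which osteoclasts also make, went from 156.7 ± 87.9 to 6.34 ± 10.4 CPM (SD, n = 4; edgeR adjusted p 0.000512). The number called depended on single libraries. It was 2 without control replicate 2, 3 without control replicate 4, and 2, 8, 3 and 1 without cKO replicates 1, 2, 3 and 4. With no sex covariate it was 2 and with no expression filter 9. Of the 5 genes, Mmp9 alone kept its call in all of these fits.

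Replicate 2 of the cKO cartilage lay below every control in Panx3 and some other maturation genes, but not in Col10a1 or several more (plot of maturation genes by cartilage library). This male library held 401.4 CPM of Col10a1, 32.4 CPM of Ihh, 71.7 CPM of Alpl, 216.0 CPM of Ibsp (bone sialoprotein) and 946.3 CPM of Spp1. Each of these lay inside the control range or, for Spp1, above it. Its Panx3, at 20.99 CPM, was below the lowest control at 56.1 CPM. Below every control too were its Mmp9 (21.9 CPM), Adamts4 (13.99 CPM), Cdkn1c (995.3 CPM) and Vegfa (282.5 CPM). The lowest controls held 30.0, 20.5, 1182 and 290.4 CPM of these. In the cKO females Ibsp was at 6.24 and 6.89 CPM and Spp1 at 49.1 and 94.8 CPM, under every control, while their Panx3 levels were the highest of the cKO libraries. In the other cKO male, replicate 1, both Ibsp (20.2 CPM) and Panx3 (18.5 CPM) were under every control.

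**Figure D4:**
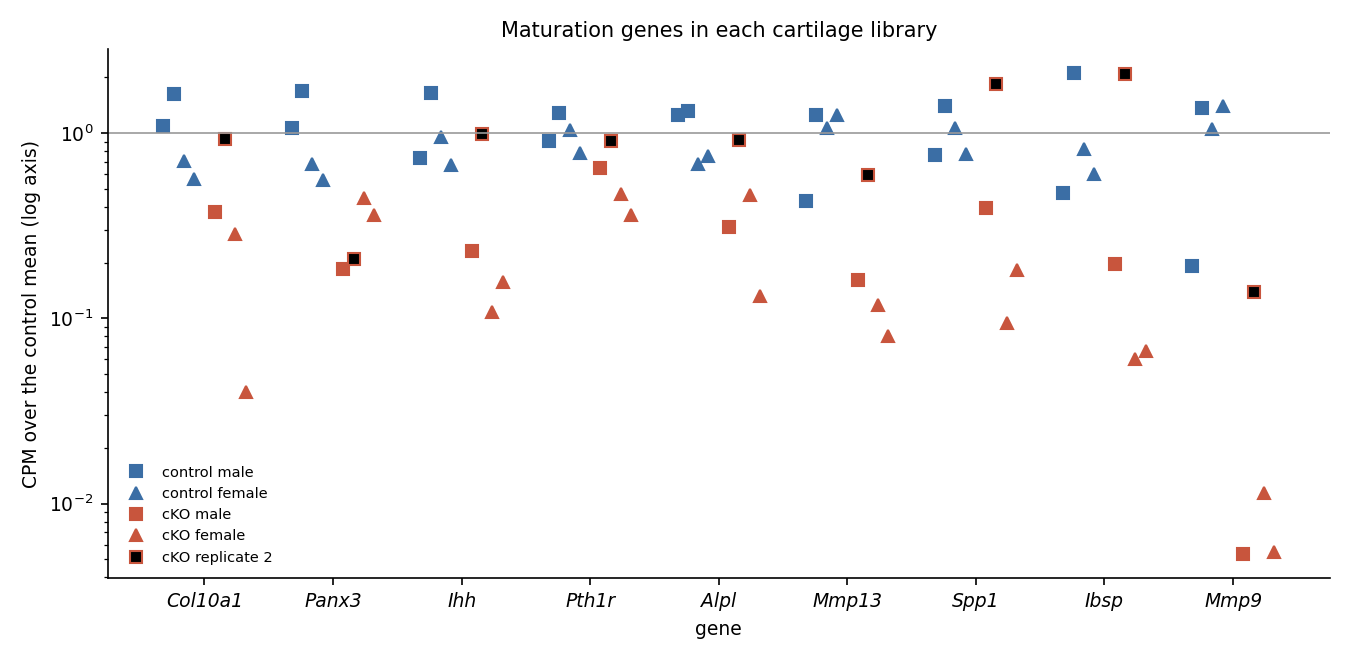
Level of 9 genes in each cartilage library divided by the mean of the 4 controls (log axis; line at 1, squares male, triangles female, black fill for cKO replicate 2). For Col10a1, Ihh, Alpl and Ibsp, cKO replicate 2 lies among the controls, and for Panx3 and Mmp9 it lies below them with the other cKO libraries.

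Within the cKO cultures of day 0 Col10a1 and Panx3 ran in opposite order, with most but not all other maturation genes high where Panx3 was high. Replicate 1 held the least Col10a1 of the 3 (588.2 CPM) and the most Panx3 (36.4 CPM). It also held the most Mmp13 (59.1 CPM against 11.2 and 4.95), Alpl (44.9 CPM against 21.4 and 15.2) and Ibsp (15.9 CPM against 1.19 and 0.407). Most of the list was highest there. Vegfa, Adamts5 and Cdkn1c lay between the other cultures, and Ankh was lowest (39.5 CPM against 42.4 and 43.9).

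With day in control cultures, 5 of the 15 maturation genes rose, 2 fell and 8 were not called (median 0.74 against 0.00 over all genes, of which 28.1% were higher and 28.8% lower). Adamts4 rose (log2 2.70), as did Mmp13 (1.73), Spp1 (0.95) and the pyrophosphate transporter Ankh (0.85), and Bmp6 fell (−0.91). Mmp13 was near the threshold (edgeR adjusted p 0.0429, and 0.0623 with a replicate block). It lost the call in 9 of 14 fits that left out 1 culture, namely any day 0 control, day 3 control 1, 3 or 4, or day 3 cKO 1, 2 or 3 (adjusted p up to 0.128). Spp1 lost it in 3, without day 0 control 2 or 3 or day 3 control 3 (up to 0.0621). Left out in turn, control replicates 1, 2 and 3 of day 0 and control replicate 3 of day 3 each lowered the number that rose, to 3, 2, 2 and 2, and with control cultures only it was 8.

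Among 22 regulators of hypertrophy, 6 rose, 4 fell and 12 were not called with day in control cultures, where 28.1% of all genes tested were higher and 28.8% lower. The activator genes moved in different directions there. Runx2 and Sp7, which drive hypertrophic and osteoblast programmes, rose (log2 0.996 and 1.11, edgeR adjusted p 0.00037 and 0.00387). Foxa2 and Foxa3, forkhead factors that act on hypertrophic genes, fell by 3.31 and 1.45 on the log2 scale (edgeR adjusted p 3.44e-06 and 0.00302). Fos, a subunit of AP-1, fell from 85.5 ± 5.87 CPM (SD, n = 3) to 2.87 ± 1.65 CPM (SD, n = 4; log2 −4.89, edgeR adjusted p 3.17e-08). Of these regulators Fos had the log2 change nearest to that of Col10a1.

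By genotype, 6 regulators were higher, 6 lower and 10 not called at day 0, where 33.0% of all genes tested were higher and 31.6% lower. Fos (log2 −1.53), Foxa3 (−0.86), Sox9 (−0.71) and Sox6 (−0.63) were lower and Runx2 (0.46) was higher. With all 14 cultures in 1 fit, the number called higher was 1 and lower 2. In that fit Foxa3, Sox9, Sox6 and Runx2 lost the call (edgeR adjusted p 0.07, 0.217, 0.0955 and 0.0603), and Fos kept it (0.000228). At day 3, 7 of 21 tested were higher, 5 lower and 9 not called, with Sox6 (−1.56) and Sox9 (−1.45) lower and Sp7 (1.48), Fos (1.44) and Dlx6 (1.25) higher. Of all genes tested at day 3, 25.5% were higher and 22.6% lower. The number lower was 3 without control replicate 3 or 4. Sox9 lost its call without any single control replicate or cKO replicate 2 (adjusted p up to 0.0649), and Dlx6 without control replicate 1, 2 or 3 or cKO replicate 2 or 4 (up to 0.111). In cartilage Runx1 (−0.89), Smad1 (−0.69) and Runx2 (−0.66) were lower, none was higher by edgeR or DESeq2 (0 at an unadjusted p under 0.05 as well) and 16 of 19 tested were not called, beside 3.15% higher and 3.04% lower of all genes. Without control replicate 2 or cKO replicate 1, and with DESeq2, the number lower was 1. It was 5 without cKO replicate 3 and with no expression filter.

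The 5 relatives followed were the short-chain collagens Col8a1 and Col8a2 and the channel genes Panx1, Panx2 and Gja1 (connexin 43). Panx2 was lower in cKO at day 0 (log2 −2.82) and day 3 (−1.20), as Panx3 was. Panx1 was higher (0.73 and 0.84), and so was Gja1 (0.61 and 1.59). Col8a2 was lower at day 0 (−0.69) and not called at day 3, and Col8a1 was not called in any comparison. With all 14 cultures in 1 fit, Col8a2 and Gja1 were not called at day 0 (adjusted p 0.0562 and 0.0681). In cartilage none of the 3 tested was called (edgeR and DESeq2; 1 was lower at an unadjusted p under 0.05), and Panx1 and Panx2 did not pass the filter. With day in control cultures Panx2 fell (−1.25), against the rise of Panx3. Of all genes tested, 64.5% were called at day 0, 48.1% at day 3, 6.19% in cartilage and 56.9% by day. Nothing is read from the number of relatives called.

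The genes whose pattern was most like each member were ranked by Pearson's r of log2(CPM + 1) over the 22 libraries, each centred on the mean of its setting, among 8364 genes. Libraries within a group share their genotype and, in cartilage, their pool, so r is a description. For Panx3 the 5 likest were Wscd2 (0.94), the membrane transporter Flvcr2 (0.939), the valyl-tRNA synthetase Vars (0.931), Mphosph6 (0.931) and the ciliary trafficking gene Tulp3 (0.927). For Col10a1 the first 4 were the kinesin Kif1c (0.895), the zinc transporter Slc39a13 (0.886), the procollagen protease Bmp1 (0.862) and the syndecan Sdc3 (0.856). Flvcr2 was lower in cKO at day 0, at day 3 and in cartilage (log2 −2.21, −2.91 and −1.53), on the same side as Panx3 in each. Slc39a13 was lower at day 0 (−0.29), higher at day 3 (0.46) and lower in cartilage (−0.56), the order of directions shown by Col10a1, the gene it was picked to resemble. The other genes named for Col10a1 did not show this by their calls. Kif1c and Sdc3 were called in none of the 3 genotype comparisons, with Sdc3 at 0.10 at day 0. Bmp1 was called only at day 0 (−0.15). For Panx3, Wscd2 was called lower in all 3, and Vars, Mphosph6 and Tulp3 were not called in cartilage. Neither member was among the likest of the other: r between them was −0.176, and 0.213 without cKO day 3 replicate 4. Without that library 2 of the 5 likest genes of Col10a1 and 4 of the 5 of Panx3 were shared with the full ranking.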

How the data were processed

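RNA was measured in 22 samples. The cultures were sequenced with a directional kit, and the authors deposited estimated counts per gene (expected counts), which were rounded here; the aligner and counter were not given in the sources used here. Cartilage libraries were made with BRB-seq, a barcoded 3′ method with molecular identifiers, per the labels' protocols. The authors deposited whole-number counts for these, used as the main values, and estimated counts of the same libraries, used as an alternative. The submitters' processing notes name the build GRCm38 and, for cartilage, UMI-tools 1.1.1, Trim Galore 0.6.7, HISAT2 2.2.1, featureCounts 2.0.1 and DESeq2 1.34.0, with no role given, and whether identifiers were collapsed was not given in the sources used here. Ribosomal RNA genes held 9.96 to 23.6% of the whole-number cartilage counts. A deposited list gave each cartilage library's pool. Unused per-sample columns numbered 0.

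Counts were tested in R 4.3.3 with edgeR 4.0.16 (quasi-likelihood F test, TMM factors, filterByExpr with 10 and 15 counts). P-values were adjusted by Benjamini-Hochberg across the genes in each fit, and genes were called at adjusted p under 0.05. SE is the size of the log2 change over the root of F. Genotype was fitted within day 0, day 3 and cartilage (with sex), day in 1 fit of 14 cultures, and sex in cartilage with genotype. CPM were scaled by TMM over all 14 cultures, and separately over cartilage, so levels are not compared between them. The fits were tested on simulated data. The members and gene lists were chosen with earlier results of these data known. Named genes are the 2 members, Dnmt1, up to 5 called genes per list and comparison, ranked by size of log2 change, and the 5 likest genes of each member, of which 1 is not reported here. Single-library values of Mmp13, Spp1, Alpl, Ibsp, Ihh, Mmp9, Adamts4, Adamts5, Ankh, Cdkn1c and Vegfa were chosen after they were seen. So were Ctsk, Acp5 and the day 0 and cartilage splits between libraries. DESeq2 1.42.0, other scaling, no filter, a replicate block, left-out libraries and other counts were tried as alternatives.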

Additional observations from a re-analysis of the deposited data

Results flagged for a closer look

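Of 12 groups of 4 libraries screened for Col10a1, Panx3 and Dnmt1, a single library lay far from the rest in 2, and chance alone gives about 1 in 20. Both belong to cKO day 3 replicate 4: its Col10a1, at 1392 CPM, was the highest of its group by a gap of 0.966 of the group's range, and its Panx3, at 16.2 CPM, the lowest by a gap of 0.856. The same library had the lowest Dnmt1 of its group, at 10.9 CPM against a mean of 30.7 CPM in the other 3.

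For Panx3 in cartilage, both control females lay below both control males and both cKO females above both cKO males. The difference between these sex differences was 2.19 on the log2 scale, a description, since it uses the genotype contrast by which the genes were chosen. With 2 libraries of each sex per genotype and no share over all genes computed, nothing is read from the separation.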

How the results depend on the processing

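Of 258 values recomputed for the 2 genes and for the numbers of genes called, 240 counted as unchanged, by a measure that differed between kinds of value. Numbers of genes had to stay within 1.5-fold. Levels and untested log2 fold changes had to move by less than the SD between libraries, which was wide for Col10a1 at day 3. Tested values had only to keep their sign and their side of the threshold, whatever their size. The genotype log2 fold changes of Panx3 ranged without single replicates from −1.82 to −1.42 at day 0, −2.51 to −2.14 at day 3 and −1.99 to −1.35 in cartilage, and those of Col10a1 from −0.86 to −0.68, 0.82 to 3.73 and −1.93 to −1.11. The lowest day 3 value, 0.82, left out cKO replicate 4, without which the day change of Col10a1 in cKO was −3.20. Genes called without single replicates numbered 362 to 630 in cartilage by genotype (544 with all libraries, 362 without cKO replicate 4) and 3 to 26 by sex (4 with all, 26 without control replicate 3, 7 without cKO replicate 4). With no expression filter they were 1044 and 93, and at day 0 a fit of all 14 cultures called 6260 in place of 10023. By sex, Col10a1 was called only with no filter (−1.49, edgeR adjusted p 1.68e-17), and ranged from −1.80 to −1.14 without single replicates. Panx3 by sex ranged from −0.64 to 0.018, the last without control replicate 2. The Panx3 sex difference between genotypes ranged from 1.83 to 2.48. Without TMM factors the day 0 control levels were 1103 CPM for Col10a1 and 76.1 CPM for Panx3, and 1104 and 76.2 CPM on totals without ribosomal RNA and repeat-sharing genes. With Spearman's rho, 2 of the 5 likest genes of each member were shared with the main ranking, and 2 for Col10a1 without cKO day 3 replicate 4. DESeq2 gave no p for Col10a1 by day (log2 −4.79). The causes were not tested. Deviations of samples with the same replicate number correlated at −0.337 to 0.14. These values were not set against samples of different number, so whether the numbers pair samples was not tested. Under a replicate block, 9724 genes were called at day 0, 5391 at day 3, 576 in cartilage and 8241 by day, and Col10a1 at day 3 was 1.76. Of 682 recomputed tests of the other named genes, 66 lost the call and none reversed. Cartilage depth limits low levels most: a count of 20 lay behind the lowest Col10a1 value.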
